A study of Homo sapiens with 12 samples.

Results

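Messenger RNA of the RNA interference machinery was followed here through 10 genes: the 4 Argonaute genes AGO1, AGO2, AGO3 and AGO4, the 3 TNRC6 genes TNRC6A, TNRC6B and TNRC6C, the ribonucleases DICER1 and DROSHA, and TARBP2. They were chosen by name from the pathway, with earlier results of these data known, and no measured value enters the rule. Of these 10 genes, 9 held transcripts that could be matched, out of 34318 genes matched in all. No transcript of TNRC6A was matched, so TNRC6A is not analysed here. TNRC6C was covered by 29.2 matched reads per library on average. Of its 11 annotated transcripts 9 were matched, so its values are incomplete. How many reads the others hold is not known here.

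All libraries came from HEK293T, an established and easily transfected human embryonic kidney line, and were prepared with a kit that keeps strand information for messenger RNA. In the first experiment, cells were transfected by a lipid reagent with a control siRNA (siControl) or with an siRNA against POLR3A (siPOLR3A), the gene of the largest subunit of RNA polymerase III, and were collected after 2 days. In the second experiment, cells were exposed for 4 hours to 25 µM ML60218, a small-molecule inhibitor of RNA polymerase III, or to its vehicle, 0.1% DMSO. Each of the 4 groups had 3 libraries, and nothing in the labels says that these came from separate cultures, so the p-values measure the spread between libraries, which may be technical. Both arms of the first experiment carried a transfected siRNA, whereas neither arm of the second is labelled as carrying one. Sample titles name Hek293T in the first experiment and drop the letters Hek and T in the second. The sequences of both siRNAs are not given in the sources used here.

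Libraries held 37008325 to 49479476 estimated reads. POLR3A itself fell by 2.36 on the log2 scale with siPOLR3A (adjusted p = 1.94e-05 by edgeR's quasi-likelihood test), with 86.8 to 93.5 CPM (reads scaled for library size) in siControl and 14.6 to 19.3 in siPOLR3A. It also fell by 0.38 with ML60218 (adjusted p = 0.000229), or by 0.17 with neighbouring unmatched transcripts added and by 0.24 on the log2(TPM + 0.1) scale. The labels call the cells kidney epithelium. VIM and other genes fixed as marks of the HEK293 line summed to 440.4 to 701.3 TPM, and that sum was lower in siPOLR3A (440.4 to 452.9) than in siControl (621.8 to 665.6) and higher in ML60218 (633.6 to 701.3) than in DMSO (558.7 to 599.2). Its part in the results was not tested. VIM alone spanned 266.6 to 434.9 TPM over all libraries. Of the epithelial genes in that list, KRT18 lay between 24.5 and 36.7 TPM. KRT8 (2.08 to 6.18 TPM), EPCAM (1.32 to 4.09) and CDH1 (1.31 to 4.5) were low. Among genes of differentiated kidney, UMOD, AQP2 and SLC34A1 did not exceed 0.157 TPM in any library, and LRP2 lay between 3.04 and 10.3. The leukocyte gene PTPRC was at 0 in every library.

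The microRNA arm of RNA interference begins in the nucleus, where DROSHA, held by its partner DGCR8, cuts the hairpin out of a primary microRNA transcript. In the cytoplasm DICER1, assisted by the double-stranded RNA-binding protein TARBP2, cuts the loop off and hands a short duplex to an Argonaute protein, which keeps one strand as its guide. The same Argonautes accept transfected siRNAs. Among the human members AGO2 is the one best known for cutting a fully paired target, and TNRC6 proteins bind Argonautes and recruit the deadenylases that shorten the tail of a partly paired target.

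Levels can be compared between genes only per unit length, and for this the deposited TPM values (transcript abundance scaled for length and depth) were summed over each gene's transcripts. DROSHA stood highest in all groups, with 59.6, 48.3 and 58.1 TPM in the siControl libraries, 57.0, 49.6 and 46.3 in siPOLR3A, 65.1, 51.2 and 50.8 in DMSO and 71.6, 68.7 and 67.3 in ML60218. TARBP2 came next, with means between 34.0 ± 2.17 TPM (SD, n = 3, siPOLR3A) and 41.1 ± 2.39 (SD, n = 3, DMSO). That sum spreads over 20 matched transcripts, and TARBP2-201, the leading coding one, held 31.1% of it in siControl. With a siControl mean of 10.85 TPM, TARBP2-201 lay below DICER1-201 (22.1 TPM) and AGO2-201 (18.1 TPM), so the rank holds for summed TPM only. In each group the lowest DROSHA library lay above the highest TARBP2 library. DICER1 came after TARBP2 and AGO2 after DICER1 in the means of every group, and neither overlapped the other except in ML60218, where DICER1 spanned 13.6 to 15.7 TPM and AGO2 14.1 to 15.4. DICER1 and TARBP2 overlapped in siPOLR3A alone among the 4 groups. These levels count matched transcripts only, and DICER1 has 1.39 times as many reads once neighbouring unmatched transcripts are added, so its place against TARBP2 in the siRNA experiment is not settled.

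Below AGO2, the order was not resolved. TNRC6B, AGO1 and AGO4 lay between 12.9 and 16.8 TPM in siControl, and in that group TNRC6B overlapped AGO1 and AGO1 overlapped AGO4. AGO3 was the lowest Argonaute in siControl (9.80 ± 1.07 TPM, SD, n = 3), siPOLR3A (6.88 to 7.17 TPM) and DMSO (8.16 ± 0.541), although it overlapped AGO4 in DMSO, and in ML60218 it overlapped AGO4 and AGO1. Together the 4 Argonaute genes summed to 57.5 ± 4.16 TPM in siControl, 53.7 ± 3.35 in siPOLR3A, 41.2 ± 1.05 in DMSO and 44.8 ± 1.26 in ML60218 (SD, n = 3 each). AGO2, the catalytic member, made up 34.3 to 35.8% of that sum in the siControl libraries and 40.7 to 43.1% in the siPOLR3A libraries, which did not overlap. Its own TPM did overlap (18.5 to 22.2 in siControl and 21.6 to 23.7 in siPOLR3A), whereas AGO1 and AGO3 were lower in siPOLR3A. The share alone therefore does not show a rise of AGO2. In the other experiment AGO2 made up 30.9% on average in DMSO and 32.8% in ML60218, and those libraries overlapped.

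The control groups of the experiments also differed in level. DICER1 stood at 28.8, 28.3 and 27.9 TPM in siControl and at 17.0, 17.5 and 15.4 in DMSO. AGO2 stood at 22.2, 18.5 and 20.1 TPM in siControl and at 13.6, 12.6 and 12.0 in DMSO. Neither gene overlapped between these groups, while DROSHA did, with means of 55.3 and 55.7 TPM. Transfection, vehicle, time and experiment cannot be told apart in that contrast, and no test was made of it.

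**Figure D1:**
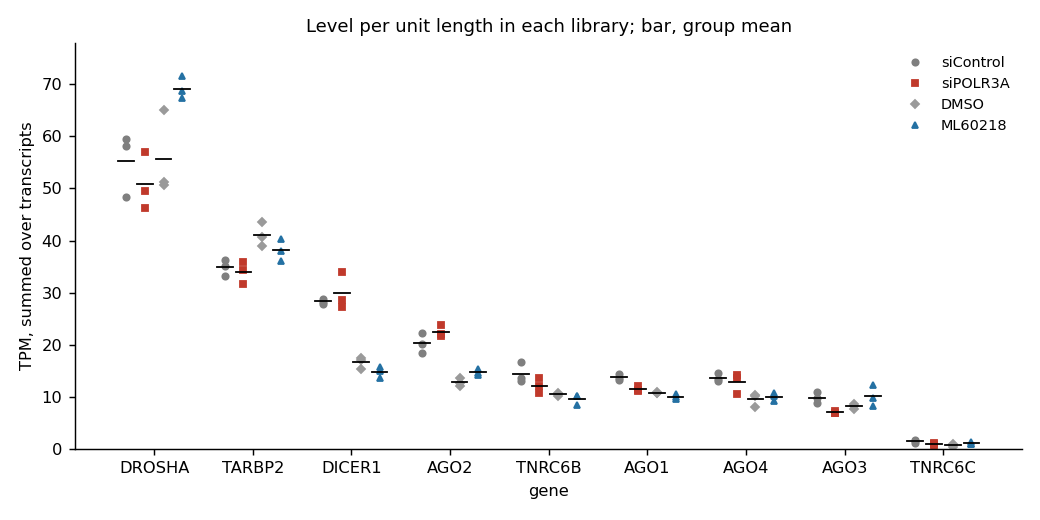
Levels in TPM (vertical axis, linear from 0), summed over the transcripts of each gene (horizontal axis), with 1 symbol per library and a bar at the mean of the 3 libraries of each group. DROSHA and TARBP2 have the highest means in all groups, although TARBP2 and DICER1 overlap in siPOLR3A. DICER1 and AGO2 sit higher in the siRNA experiment than in the compound experiment.

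The siRNA comparison asked how these messages stood 2 days after POLR3A was targeted. In edgeR's quasi-likelihood fit over all 15404 genes tested, 5 of the 9 members tested fell, namely AGO1, AGO4, TNRC6B, TNRC6C and DROSHA, and no member rose. The call was an adjusted p under 0.05 (Benjamini-Hochberg over all genes tested), and 56.6% of all genes tested were called, 29.2% lower and 27.4% higher. Of all calls 48.4% were higher, while upper quartile scaling gave 58.7% and total counts 57.0%. The share of members called is thus near the share of all genes called, and the sizes are alike too: the median absolute log2 fold change was 0.20 over the members and 0.23 over all genes. The median signed change was -0.20 over the members and 0.01 over all genes. At an unadjusted p under 0.05, 6 members were lower and none was higher. The share of all genes at that threshold is not given here, so nothing is read from that count. With upper quartile scaling AGO3 was called higher (0.14), and after a trend on GC content and length was removed AGO2 (0.15) and AGO3 (0.14) were, so the absence of rises holds for the scaling used and not for every one.

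AGO1, an Argonaute that is not known as an efficient slicer, had the firmest change. Its messages stood at 161.5, 162.3 and 152.5 CPM in siControl and at 127.4, 127.4 and 135.5 CPM in siPOLR3A. The highest siPOLR3A library lay below the lowest siControl library. AGO1 fell by 0.29 on the log2 scale (SE 0.033, adjusted p = 4.18e-06 by edgeR), that is, its CPM decreased by 18.0%. It was called lower in all 17 alternatives run, with values from -0.32 to -0.23.

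AGO4, its neighbour on the chromosome, stood at 64.0, 61.7 and 61.0 CPM in siControl and at 53.8, 52.4 and 54.8 CPM in siPOLR3A. The groups did not overlap, and AGO4 fell by 0.21 on the log2 scale (SE 0.033, adjusted p = 8.2e-05 by edgeR). On the TPM scale, where short fragments of the gene weigh more, AGO4 moved by -0.10 and was not called (adjusted p = 0.463 by limma), and with a trend on GC content and length removed it fell by 0.12.

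AGO2 and AGO3 did not pass the test. AGO2 stood at 217.9, 189.1 and 186.6 CPM in siControl and at 214.3, 214.8 and 227.6 in siPOLR3A, and siControl replicate 1 overlapped the siPOLR3A libraries while the other siControl libraries did not. Its log2 fold change was 0.15 (SE 0.070, adjusted p = 0.138 by edgeR), and without siControl replicate 1 it was 0.23 and was called (adjusted p = 2.57e-05). AGO3 stood at 57.6, 52.9 and 54.3 CPM against 54.7, 57.6 and 62.2, which overlapped, and its change of 0.08 on the log2 scale (SE 0.049) was not called (adjusted p = 0.18 by edgeR). Without siPOLR3A replicate 1 it was 0.12 and was called (adjusted p = 0.0459).

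For AGO3 the deposited units disagreed in sign. Summed TPM of AGO3 was 10.9, 8.76 and 9.73 in siControl and 7.17, 6.88 and 6.95 in siPOLR3A, which did not overlap, and on the log2(TPM + 0.1) scale AGO3 moved by -0.47 (adjusted p = 0.0025 by limma). An offset for the average transcript length gave -0.52 (adjusted p = 3.58e-05 by edgeR). The reads of AGO3 came mostly from AGO3-203, a transcript of 19660 bases, which made up 31.3% of the gene's TPM in siControl and 50.3% in siPOLR3A. AGO3-202, of 1726 bases, made up 31.1% of that TPM in siControl, with 151.6 reads per library on average. It stood at 3.17, 2.86 and 3.05 TPM in siControl and at 2.71, 2.29 and 2.12 in siPOLR3A, which did not overlap. Its change of -0.375 (SE 0.135) was not called (adjusted p = 0.146 by edgeR). AGO3-206, a retained-intron transcript of 548 bases, stood at 1.70, 1.14 and 0.80 TPM in siControl and at 0, 0.283 and 0 TPM in siPOLR3A. AGO3-204, of 1035 bases, stood at 1.29, 0 and 1.23 TPM and at 0 in all siPOLR3A libraries. Fewer than 20 reads per library supported AGO3-206 and AGO3-204 each in the siControl mean, and neither passed the filter on low counts in this comparison.

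Of the TNRC6 genes, TNRC6B stood at 176.4, 152.3 and 152.2 CPM in siControl and at 125.4, 125.1 and 138.3 CPM in siPOLR3A. The groups did not overlap, although siControl replicate 1 stood above the other siControl libraries. TNRC6B fell by 0.31 on the log2 scale (SE 0.079, adjusted p = 0.023 by edgeR). The call was lost in 9 of 17 alternatives, among them without siPOLR3A replicate 1 (-0.29, adjusted p = 0.0791) and without siPOLR3A replicate 2 (-0.28, adjusted p = 0.0682). The rest were upper quartile scaling, total counts, no filter, the replicate number as a block, the isoform length offset and the TPM scales. The values of all 17 alternatives lay between -0.36 and -0.23. TNRC6C had 44.0, 38.5 and 46.5 matched reads in siControl and 10.1, 34.7 and 13.5 in siPOLR3A, and its call (log2 fold change -1.15, SE 0.386, adjusted p = 0.0286) was lost on leaving out any siControl library or siPOLR3A replicate 1 or 3, with adjusted p from 0.0546 to 0.11. Leaving out 1 library moved it between -1.85 (without siPOLR3A replicate 2, adjusted p = 0.000331) and -0.81 (without siPOLR3A replicate 1). The call describes only the matched transcripts of that gene, on few reads.

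**Figure D2:**
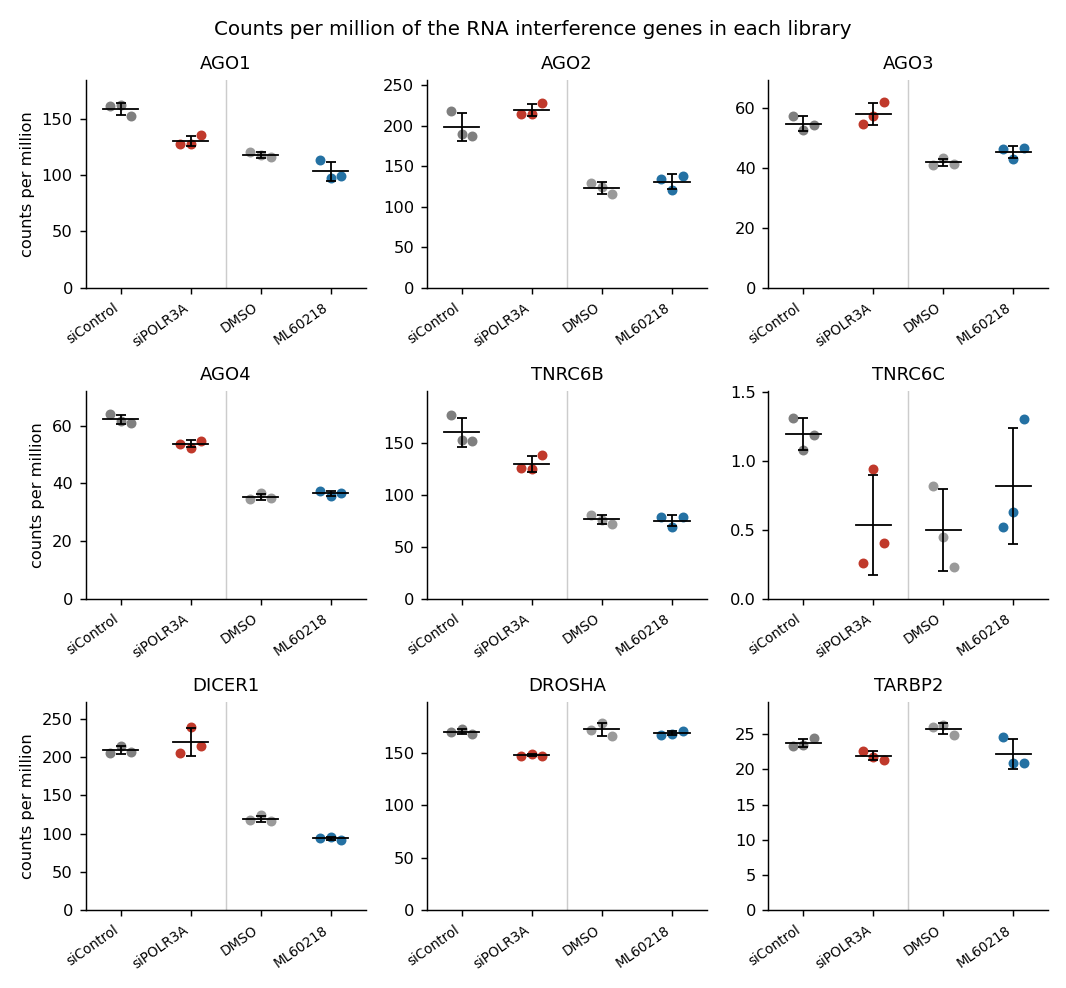
CPM (vertical axes, linear from 0) in each library of the 4 groups (horizontal axes) for the 9 members, with the mean and SD of the 3 libraries; each experiment was scaled on its own libraries. AGO1, AGO4, TNRC6B, TNRC6C, DROSHA and TARBP2 have no siPOLR3A library as high as any siControl library. DICER1, AGO1 and TARBP2 have no ML60218 library as high as any DMSO library. Of all genes tested, 63.4% and 51.9% had groups free of overlap in these comparisons, in either direction.

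Of the ribonucleases and their partner, DROSHA stood at 169.6, 172.8 and 168.0 CPM in siControl and at 147.3, 148.9 and 147.2 in siPOLR3A, and the spread within each group was small beside the gap. DROSHA fell by 0.20 on the log2 scale (SE 0.024, adjusted p = 6.02e-06 by edgeR), that is, its CPM decreased by 13.2%. On the TPM scale the same change was -0.12 and was not called (adjusted p = 0.367 by limma), and with a trend on GC content and length removed DROSHA also fell by 0.12 (adjusted p = 0.000286). DICER1 stood at 205.1, 214.3 and 206.9 CPM against 204.4, 239.5 and 214.5, which overlapped, and its change of 0.07 (SE 0.062) was not called (adjusted p = 0.374 by edgeR). When unmatched transcripts lying in the deposited table between transcripts of DICER1 were added, its reads were 1.39 times as many and its change was 0.12, which was called (adjusted p = 0.0346). TARBP2 stood at 23.3, 23.5 and 24.4 CPM against 22.6, 21.8 and 21.4. Its groups did not overlap, and its change of -0.12 (SE 0.050) missed the threshold (adjusted p = 0.0609 by edgeR), while with a trend on GC content and length removed it was called (-0.16, adjusted p = 0.0097). In all, 6 of the 9 members had groups free of overlap, beside 63.4% of all genes tested.

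At the level of single transcripts, 31 member transcripts that held at least 10% of their gene's TPM in some group were followed, and 21 of them passed the count filter in the siRNA comparison. Of these, 4 fell and 0 rose in an edgeR fit over 58745 transcripts, of which 13.1% were called. AGO1-201, which carries 99.6% of the TPM of AGO1 in siControl, fell by 0.30 (SE 0.036, adjusted p = 0.00428), and AGO4-201 fell by 0.23 (SE 0.032, adjusted p = 0.0076). TNRC6B-202, the largest contributor to TNRC6B, fell by 0.39 (SE 0.046, adjusted p = 0.00388), while TNRC6B-206 and TNRC6B-201 moved by -0.09 and -0.30 and were not called. Of the DROSHA transcripts, DROSHA-220 stood at 27.9, 26.6 and 26.3 TPM in siControl and at 21.3, 21.8 and 21.6 in siPOLR3A and fell by 0.35 (SE 0.028, adjusted p = 0.000836). DROSHA-201, the other long coding transcript of the gene, stood at 8.02, 8.50 and 7.71 TPM against 8.49, 8.41 and 8.66 and was not called (0.05, adjusted p = 0.711). The difference between those transcripts was not tested, and these tests do not carry the error of assigning a read to an isoform.

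**Figure D3:**
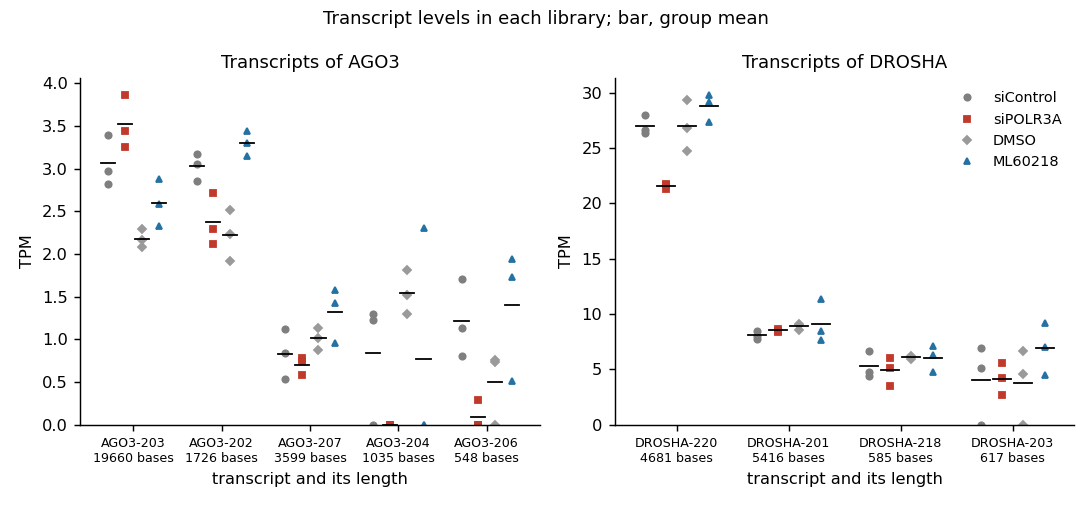
TPM (vertical axes, linear from 0) of the followed transcripts of AGO3 and of DROSHA in each library, ordered along the horizontal axes with their lengths, with a bar at each group mean. DROSHA-220 is lower in siPOLR3A than in siControl while DROSHA-201 overlaps, and the short AGO3-204 and AGO3-206 sit at or near 0 in siPOLR3A.

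AGO4, AGO1 and AGO3 lie in that order on the plus strand of chromosome 1 (GRCh38, GENCODE 29), AGO4 at 35808172 to 35857890, AGO1 at 35869808 to 35930528 and AGO3 at 35930718 to 36072500. AGO2 is on chromosome 8. TNRC6B lies on chromosome 22 (plus strand, 40044817 to 40335808), DICER1 on chromosome 14 (minus strand, 95086228 to 95158010), DROSHA on chromosome 5 (minus strand, 31400497 to 31532196) and TARBP2 on chromosome 12 (plus strand, 53500921 to 53506431). The Argonaute genes share protein sequence, but of their transcript 31-mers only 0.16% (AGO2) to 6.71% (AGO3) also occur in transcripts of another gene, and no more than 39 of any member's occur in another member. Genes on the opposite strand overlap most members, DICER1-AS1 among them, and whether the counting used strand is not given in the sources used here.

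Argonaute and TNRC6B messages end in long 3′ untranslated regions (UTRs), and a short guide pairs with such regions through its seed. The 6 letters GAGGGA were searched for on the transcript strand of each member's leading transcript, because they had been found earlier in these data to be frequent in genes that fell with siPOLR3A, so a match here is no independent evidence. Of all 13376 tested genes with a scanned UTR, 33.7% held them, a share that depends on UTR length. They were in 68.6% of the 271 genes called lower with siPOLR3A by a fold of at least 2. Of the 225 genes called higher by such a fold, 33.8% held them. The letters were picked for being frequent in genes that fell, and neither share was set against UTRs of like length. Nothing is therefore read from the contrast between these shares. TNRC6C is left out, because the length of its transcript in the deposited table differs from that in GENCODE 29. Copies numbered 7 in AGO1 (UTR of 10921 bases), 4 in AGO2 (11888 bases), 2 in AGO3 (16755 bases), 1 in AGO4 (4285 bases) and 5 in TNRC6B (12567 bases), where 2 overlap. DICER1 (4270 bases), DROSHA (298 bases) and TARBP2 (283 bases) held 0. Among genes with UTRs of like length, 92.9% of 112 held the letters for AGO1, 68.6% of 1084 for AGO4 and 11.7% of 1232 for DROSHA. The average number of copies in the length class was 3.04 for AGO1, 3.31 for AGO2, 6.2 for AGO3, 1.5 for AGO4, 3.93 for TNRC6B, 1.49 for DICER1 and 0.14 for DROSHA and for TARBP2. Members with more copies than their class (AGO1, AGO2, TNRC6B) and with fewer (AGO3, AGO4, DICER1, DROSHA, TARBP2) both included genes that fell with siPOLR3A and genes that were not called. Whether copies go with the change was not tested.

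Copies from AGO1, AGO4 and TNRC6B, which fell, and 1 from AGO3, which was not called in counts, are shown so that the contexts can be compared. Each line gives 24 bases of the 3′ UTR in the last exon, 5′ to 3′ on the plus strand of GRCh38, with the matched letters in capitals, as annotated by GENCODE 29.
AGO1, copy 1, chr1:35919685-35919708: agcaaggagGAGGGAggtggggta
AGO1, copy 3, chr1:35924581-35924604: gaagataatGAGGGAgtggaataa
AGO4, its only copy, chr1:35855165-35855188: atcaggagtGAGGGAtggaaaagg
TNRC6B, copy 4, chr22:40325933-40325956: agacataatGAGGGAtttgaaata
AGO3, copy 1, chr1:36057254-36057277: gagtttgttGAGGGAtttttttgt
A match of these letters is a description of the sequence and not a binding site, and no measurement of pairing was made.

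The compound comparison asked how the same messages stood after 4 hours of ML60218. Of the 9 members tested, DICER1, AGO1 and TARBP2 fell and no member rose, in a fit over 15461 genes of which 39.0% were called, 20.9% lower and 18.1% higher. Of all calls 46.4% were higher, while upper quartile scaling gave 58.6% and total counts 67.0%. The members' share is near that of all genes, and their median log2 fold change was -0.03 beside 0.01 over all genes. At an unadjusted p under 0.05, AGO3 joined those 3, on the higher side, and the share of all genes at that threshold is again not given. AGO3 was called higher under upper quartile scaling (0.16) and total counts (0.19), and DROSHA was on the TPM scale. Groups were free of overlap for 3 of the 9 members, beside 51.9% of all genes tested.

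DICER1 stood at 117.7, 124.0 and 116.2 CPM in DMSO and at 93.9, 95.7 and 91.5 CPM in ML60218. The gap between the groups was several times the spread within them. DICER1 fell by 0.35 on the log2 scale (SE 0.038, adjusted p = 0.000228 by edgeR), that is, its CPM decreased by 21.5%, and the call held without any single library. On the TPM scale DICER1 moved by -0.17 and was not called (adjusted p = 0.164 by limma), and with the neighbouring unmatched transcripts added it fell by 0.22. Its leading transcript, DICER1-201, moved by -0.32 (SE 0.153, adjusted p = 0.336) and was not called.

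TARBP2, the partner of DICER1, stood at 26.1, 26.4 and 24.9 CPM in DMSO and at 24.6, 20.9 and 20.9 CPM in ML60218. AGO1 stood at 120.3, 117.4 and 115.6 CPM in DMSO and at 113.1, 97.7 and 98.8 CPM in ML60218. In both genes ML60218 replicate 1 lay close to the DMSO libraries, although the groups did not overlap. AGO1 fell by 0.19 (SE 0.055, adjusted p = 0.0211 by edgeR) and TARBP2 by 0.22 (SE 0.070, adjusted p = 0.0292 by edgeR). Both calls were lost on leaving out DMSO replicate 1 or 2 or ML60218 replicate 2 or 3 (AGO1 -0.20 to -0.15, adjusted p 0.0629 to 0.0737; TARBP2 -0.22 to -0.18, adjusted p 0.0809 to 0.106), and also with total counts (-0.12 and -0.15). With a trend on GC content and length removed, AGO1 fell by 0.36 and TARBP2 was not called (-0.10).

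The other members did not pass. AGO2 stood at 129.6, 124.1 and 115.5 CPM in DMSO and at 134.7, 121.0 and 137.3 in ML60218 (log2 fold change 0.09, SE 0.057, adjusted p = 0.246). AGO3 stood at 41.1, 43.4 and 41.4 CPM against 46.6, 43.2 and 46.8 (0.12, SE 0.048, adjusted p = 0.0756), with ML60218 replicate 2 inside the range of DMSO; without that library AGO3 was called (0.15, adjusted p = 0.0427). AGO4 (0.05, SE 0.045, adjusted p = 0.427) and TNRC6B (-0.03, SE 0.059, adjusted p = 0.768) overlapped between groups, and TNRC6B was called lower with the isoform length offset (-0.28, adjusted p = 0.0186) and with a trend on GC content and length removed (-0.18, adjusted p = 0.00532). DROSHA stood at 171.8, 178.7 and 166.0 CPM against 167.2, 168.0 and 170.6 (-0.03, SE 0.035, adjusted p = 0.529), while on the TPM scale it was called higher (0.32, adjusted p = 0.0268 by limma). Means in DMSO and ML60218 were 26.95 and 28.76 TPM for DROSHA-220, 8.87 and 9.12 for DROSHA-201 and 6.08 and 6.06 for DROSHA-218. The retained-intron DROSHA-203, of 617 bases, had means of 3.76 and 6.92 TPM. None of these transcripts was called with ML60218. TNRC6C had 9.5 to 33.0 matched reads in DMSO and 18.6 to 58.7 in ML60218 and was not called (0.74, SE 0.501, adjusted p = 0.29).

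Of the followed transcripts 23 were tested in the compound comparison and 0 were called by edgeR, where 3.23% of all 59292 transcripts tested were. At an unadjusted p under 0.05 there were 5, AGO1-201, AGO3-202, TARBP2-201, TNRC6B-201 and TNRC6B-208, and DESeq2 called 3 of these, AGO1-201, TNRC6B-201 and TNRC6B-208. Shares of all transcripts beside those counts are not given here, so nothing is read from them. TNRC6B-201, of 15958 bases, stood at 0.065, 0.071 and 0.016 TPM in DMSO and at 0.212, 0.267 and 0.432 TPM in ML60218, which did not overlap (log2 fold change 2.44, SE 0.567, adjusted p = 0.083 by edgeR). In the siRNA experiment the same transcript stood between 1.09 and 2.18 TPM.

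The effects of siPOLR3A and of ML60218 were set against each other by a contrast over all 12 libraries, in which 50.9% of 15780 genes differed. DICER1 differed by 0.43 (SE 0.069, adjusted p = 0.000136 by edgeR), being lower with ML60218 and not called with siPOLR3A. AGO4 differed by -0.26 (SE 0.052, adjusted p = 0.000642) and DROSHA by -0.17 (SE 0.040, adjusted p = 0.00256), both lower with siPOLR3A and not called with ML60218. These calls depended on the unit or on a trend: DICER1 was not called on the TPM scale (0.24, adjusted p = 0.113 by limma), AGO4 was not on the TPM scale (-0.18), with the isoform length offset (-0.05) or with a trend on GC content and length removed (-0.10), and DROSHA was not with that offset (-0.32, adjusted p = 0.114) or trend (-0.08, adjusted p = 0.0955), while on the TPM scale it was called at -0.44. TNRC6B differed by -0.28 (SE 0.104, adjusted p = 0.0452), a call that was lost in 15 of 23 alternatives. It was lost on leaving out any of 7 libraries: siControl replicate 1 (-0.21), siPOLR3A replicate 1 (-0.25) or 2 (-0.25), DMSO replicate 2 (-0.27) or 3 (-0.24), and ML60218 replicate 1 (-0.26) or 3 (-0.25).

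For AGO1 (-0.09, SE 0.067, adjusted p = 0.29), AGO2 (0.06, SE 0.097), AGO3 (-0.03, SE 0.071) and TARBP2 (0.11, SE 0.084) no difference between the effects was called. The AGO3 difference was called with the isoform length offset (-0.66, adjusted p = 0.00656) and on the TPM scale (-0.76, adjusted p = 0.00359 by limma), but was 0.14 and not called with a trend on GC content and length removed, where that of AGO2 was called (0.23, adjusted p = 0.000174). TARBP2 was called without ML60218 replicate 1 (0.18, adjusted p = 0.0356). TNRC6C lay beside the threshold (-1.88, SE 0.731, adjusted p = 0.051) and was called in 9 of 23 alternatives, DESeq2 (-1.87, adjusted p = 0.0286) and the TPM scale (-1.37, adjusted p = 0.0241 by limma) among them. Of the single libraries, leaving out siPOLR3A replicate 2 (-2.57), DMSO replicate 1 (-2.41) or ML60218 replicate 1 (-2.13) brought a call, and the range over all of them was -2.57 to -1.36. The agents differ in kind and in time, 2 days against 4 hours, and these cannot be told apart.

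**Figure D4:**
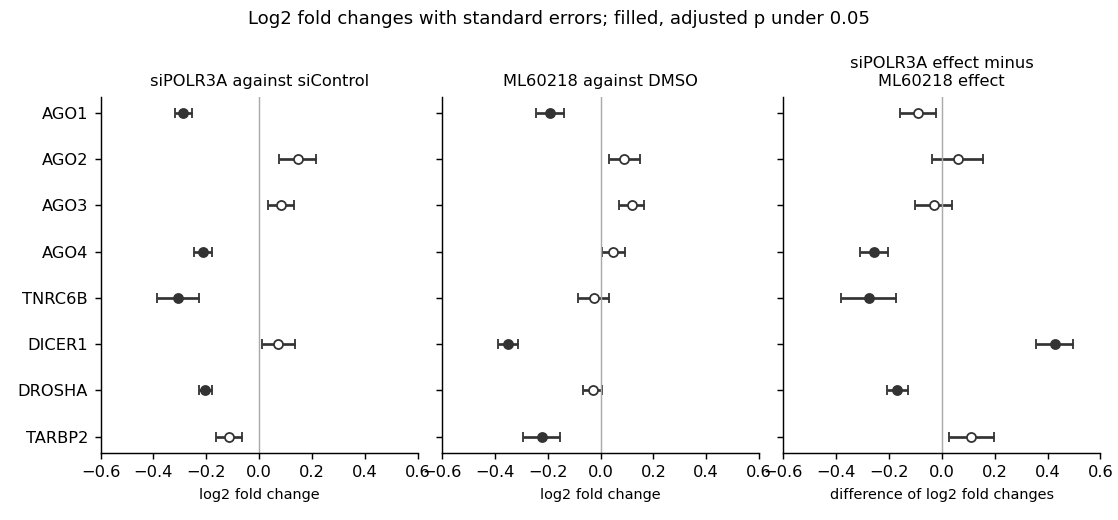
Log2 fold changes (horizontal axes) with their standard errors for 8 members (vertical axis; TNRC6C is left out for its few reads), from edgeR fits of each experiment and of the difference between their effects; filled points have an adjusted p under 0.05. AGO1 is lower in both experiments, whereas AGO4 and DROSHA are lower with siPOLR3A and DICER1 with ML60218.

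The other genes of the pathway were followed in 5 lists of 80 genes. Median log2 fold changes with siPOLR3A and ML60218 were -0.02 and -0.04 for processing and export, 0.02 and -0.12 for Argonaute cofactors, -0.13 and -0.03 for deadenylation and -0.07 and -0.14 for repression and decay, beside 0.01 over all genes in both. In the list for microRNA processing and export, 5 of 16 tested genes rose and 5 fell with siPOLR3A, beside the 27.4% and 29.2% of all genes. LIN28B, which binds let-7 precursors and blocks their processing, stood at 290.8 ± 0.589 CPM in siControl and 99.1 ± 1.45 in siPOLR3A (SD, n = 3 each) and fell by 1.55 (SE 0.024, adjusted p = 1.69e-14 by edgeR). PRKRA, a partner of DICER1 related to TARBP2, fell by 0.89, from 36.5 ± 2.68 to 19.7 ± 0.287 CPM (adjusted p = 7.1e-09), or by 0.47 with neighbouring unmatched transcripts added. DGCR8, the partner of DROSHA, rose by 0.21, from 112.1 ± 1.66 to 129.2 ± 3.59 CPM (adjusted p = 2.57e-05), and so moved opposite to DROSHA. SRRT, which links capped transcripts to microRNA processing, rose by 0.27 (adjusted p = 7.8e-06).

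With ML60218, 2 genes of that list rose and 6 fell, beside 18.1% and 20.9% of all genes. The uridylyltransferases TUT4 (0.20, adjusted p = 0.00119) and TUT7 (0.16, adjusted p = 0.0485) rose, by 0.33 and 0.35 on the TPM scale. SRRT fell by 0.33 (adjusted p = 0.00037) and LIN28B by 0.24 (adjusted p = 0.00107), but neither was called on the TPM scale (-0.12, adjusted p = 0.0975, and -0.11, adjusted p = 0.211, by limma). The call of TUT7 was lost without any of the DMSO libraries or without ML60218 replicate 1 or 3 (0.11 to 0.18).

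Among 24 genes for Argonaute loading, cofactors and turnover, 9 rose and 8 fell with siPOLR3A, beside 27.4% and 29.2% of all genes. HSP90AA1, a chaperone that holds Argonautes open for loading, rose from 2433 ± 61.7 to 3696 ± 38.4 CPM (0.60, SE 0.025, adjusted p = 9.27e-11), and HSPA8, the chaperone that works with it, fell from 1631 ± 86.7 to 1014 ± 15.3 (-0.69, SE 0.035, adjusted p = 3.17e-08). ZSWIM8, of the ubiquitin ligase that removes Argonautes during target-directed microRNA decay, rose by 0.41 (adjusted p = 4.57e-08), and IPO8, an importin that binds Argonautes, fell by 0.68 (adjusted p = 1.52e-10). With ML60218, 1 gene of that list rose and 13 fell, beside 18.1% and 20.9% of all genes. HSPA8 fell by 1.16 (SE 0.199, adjusted p = 0.0127) and ANKRD52, of the phosphatase that acts on Argonautes, by 0.53 (adjusted p = 0.000939), while AJUBA, a LIM protein that binds Argonautes, rose by 0.35 (adjusted p = 0.00163). On the TPM scale, ANKRD52 fell by 0.34 and AJUBA rose by 0.74, and 6 genes of the list were called in place of 14.

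Of 19 deadenylation genes, 4 rose and 11 fell with siPOLR3A, beside 27.4% and 29.2% of all genes, and 5 rose and 8 fell with ML60218, beside 18.1% and 20.9%. CNOT7, a catalytic subunit of the CCR4-NOT deadenylase, rose by 0.63 (SE 0.033, adjusted p = 1.31e-09), and CNOT6, another, fell by 0.55 (SE 0.023, adjusted p = 1.02e-10). The adaptor TOB2 rose by 0.14 with siPOLR3A (adjusted p = 0.00134) and fell by 0.48 with ML60218 (adjusted p = 0.000208). BTG2 fell by 0.52 with siPOLR3A (adjusted p = 7.51e-09), and TOB1 by 0.21 with ML60218 (adjusted p = 0.00166). On the TPM scale TOB1 (-0.07 with ML60218) and TOB2 (0.15 with siPOLR3A) were not called. PAN2, of the deadenylase that TNRC6 proteins also recruit, rose by 0.30 with ML60218 (adjusted p = 0.000348), or 0.47 on the TPM scale. BTG1 rose with ML60218 by 0.43 (adjusted p = 0.0455), a call that was lost without any DMSO library or without ML60218 replicate 2 (0.38 to 0.48), and without ML60218 replicate 3 it was 0.26.

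Of 15 tested genes for translational repression, decapping and decay, 4 rose and 7 fell with siPOLR3A, beside 27.4% and 29.2% of all genes, and 1 rose and 8 fell with ML60218, beside 18.1% and 20.9%. DDX6, the helicase that joins deadenylation to repression and decapping, stood at 361.3 ± 8.36 CPM in siControl and 223.6 ± 3.65 in siPOLR3A and fell by 0.69 (SE 0.025, adjusted p = 2.53e-11). LSM1, of the ring that binds shortened tails, fell by 0.42 with siPOLR3A (adjusted p = 2.71e-06) and by 0.37 with ML60218 (adjusted p = 0.000541). LSM14B (0.30, adjusted p = 1.09e-06) and the decapping scaffold EDC4 (0.19, adjusted p = 0.0002) rose with siPOLR3A, EDC4 not being called with the isoform length offset (0.12, adjusted p = 0.103) and rising by 0.11 with a trend on GC content and length removed. The cap-binding repressor EIF4E2 fell by 0.53 with ML60218 (adjusted p = 0.00289), and the exonuclease XRN1 rose by 0.31 (adjusted p = 0.0147), a call lost without DMSO replicate 2 (0.30, adjusted p = 0.0551), or by 0.17 with a trend on GC content and length removed. Of the germline PIWI Argonautes, PIWIL2 and PIWIL4 were tested, 0 of 2 was called with siPOLR3A by edgeR, also at an unadjusted p under 0.05, and none by DESeq2. PIWIL4, named after its values were seen, was called higher with ML60218 (1.09, adjusted p = 0.0326) on 9.3 to 38.5 reads per library, and DESeq2 did not call it.

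**Figure D5:**
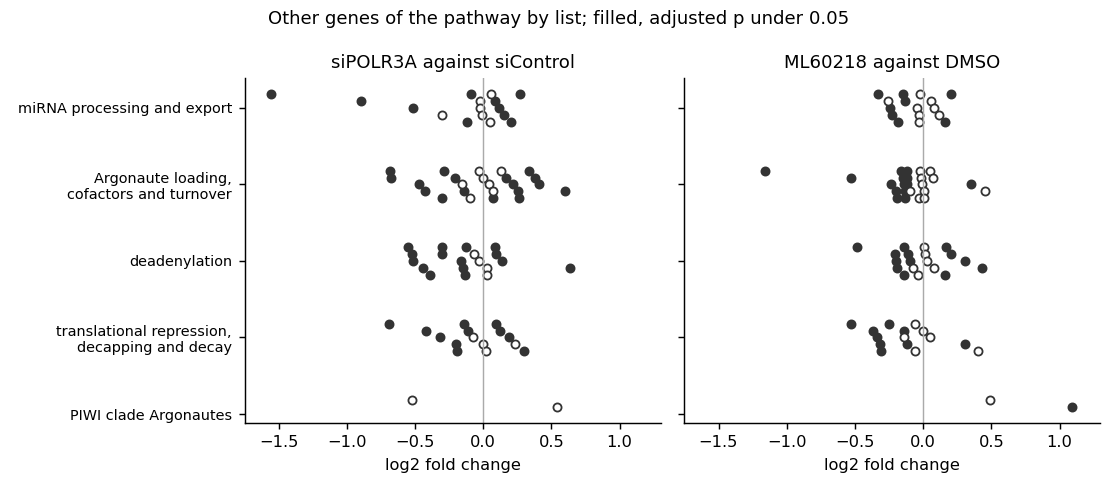
Log2 fold changes (horizontal axes) of the tested genes of the 5 pathway lists (vertical axis), 1 point per gene, with filled points at an adjusted p under 0.05 in edgeR; the vertical offset of points within a list has no meaning. LIN28B is the lowest point with siPOLR3A at -1.55, and HSPA8 is the lowest with ML60218 at -1.16.

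For each member, the 2 protein-coding genes whose log2 CPM followed it most closely over the 12 libraries were sought among 10293 genes. Because the experiments form separate clusters, the correlations are given within each experiment, over its 6 libraries, which share controls and depth, as a description. AGO1 was followed by BMF (Pearson's r 0.98 in the siRNA experiment and 0.97 in the compound experiment) and RNF43 (0.93 and 0.99). AGO2 was followed by ATAD5 (0.98 and 0.95) and UBN2 (0.93 and 0.99), and AGO3 by ABCA5 (0.95 and 0.91) and TMEM45A (0.87 and 0.87). AGO4 was followed by POLQ (0.95 and 0.86) and TNRC6B by BRWD1 (0.98 and 0.87), and both by ACVR2B, which tracked AGO4 at 0.97 in the siRNA experiment and 0.49 in the other. The other genes picked were UHMK1 and UGP2 for DICER1, CKAP2L and GNAQ for DROSHA, and PRR13 and ARPC2 for TARBP2. For DICER1 the likeness was uneven: UHMK1 had an r of 0.16 within the siRNA experiment and 0.95 within the compound experiment, and UGP2 had 0.30 and 0.93. Between members, AGO1 and AGO4 had an r of 0.98 in the siRNA experiment and -0.36 in the compound experiment, and AGO1 and TARBP2 had 0.71 and 0.99. The value for AGO1 and AGO4 is not particular to that pair. All pairs among AGO1, AGO4, TNRC6B and DROSHA, which fell with siPOLR3A, had an r of 0.85 to 0.98 in the siRNA experiment.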

How the data were processed

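The data were messenger RNA libraries of HEK293T in 4 groups of 3, grouped by sample title. Per the file headers, the authors deposited one table with an estimated count and a TPM value for each of 194142 Ensembl transcripts and library, in the columns that salmon writes. Per the submitters' processing notes, bcl2fastq 2.20, Trim Galore, DESeq2 and hg38 were used, and settings and transcript release are not given in the sources used here. Identifiers were matched to GENCODE 29: 158359 transcripts (81.6%) matched, with 91.0 to 91.6% of reads, and the unmatched 8.37 to 8.97% were left out of genes. For each gene the deposited estimated counts were added up and rounded, and they were tested in R 4.3.3 with edgeR 4.0.16 (robust quasi-likelihood fit, TMM scaling, filterByExpr with a minimum count of 10 and total of 15, two-sided, Benjamini-Hochberg threshold 0.05), each experiment on its own 6 libraries and the difference on all 12. CPM uses the same scaling, and a log2 fold change is treated minus control. The deposited TPM values were summed per gene for levels and for limma 3.58.1 on log2(TPM + 0.1) and log2(TPM + 1), with a mean TPM of at least 0.5. TPM does not hold depth, and the fold change on that scale understates low genes. Scripts were tested on simulated data.

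No replicate pair agreed within sampling noise (chi-square per degree of freedom of 4.17 or more). Members and lists were chosen with earlier results of these data known. Named genes are the members, POLR3A, from each list at most the 2 largest rises and falls among called genes with mean log2 CPM of at least 3, the 2 closest genes per member, and transcripts with at least 10% of their gene's TPM. Alternatives were RLE, upper quartile and total-count scaling, no filter, DESeq2 1.42.0, the replicate number as a block, neighbouring unmatched transcripts, an offset for isoform length, TPM, a GC and length trend removed, and leaving out each library.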

Additional observations from a re-analysis of the deposited data

Results flagged for a closer look

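The effects of siPOLR3A and ML60218 differed, by the contrast over all 12 libraries in edgeR with an adjusted p under 0.05 over all genes, for 4 of 9 members tested, where 50.9% of all genes did, and for 21 of 25 named genes of the pathway lists. Those 25 were picked for the size of their change in either experiment, so nothing is read from their share. The values below are the siPOLR3A log2 fold change minus that of ML60218. Among the members the difference was 0.427 for DICER1, -0.168 for DROSHA, -0.256 for AGO4 and -0.276 for TNRC6B.

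In microRNA processing, LIN28B differed most (-1.303), since it fell in both experiments but further with siPOLR3A. PRKRA (-0.862), TUT7 (-0.671) and TUT4 (-0.151) were lower relative to ML60218, whereas SRRT (0.604) and DGCR8 (0.396), both called in opposite directions by the agents, were higher. TUT7 was also called in opposite directions. Among Argonaute cofactors, HSP90AA1 (0.754), ZSWIM8 (0.34) and ANKRD52 (0.243) lay above 0 and IPO8 (-0.678) below. HSP90AA1 rose with siPOLR3A and fell with ML60218 (-0.15, adjusted p = 0.0144).

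Of the deadenylation genes, CNOT7 (0.778) and TOB2 (0.63) lay above 0, and BTG1 (-0.87), BTG2 (-0.529), CNOT6 (-0.411) and PAN2 (-0.364) below. CNOT7, TOB2 and BTG1 were called in opposite directions in the experiments. Of the repression and decay genes, EIF4E2 (0.424), LSM14B (0.357) and EDC4 (0.312) lay above 0, and XRN1 (-0.445) and DDX6 (-0.348) below. XRN1 and EDC4 were called in opposite directions too, and DDX6, the helicase of repressed messages, fell in both experiments.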

How the results depend on the processing

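RLE scaling, DESeq2, no filter and the neighbouring transcripts kept the number of called members within 1.5 times in both comparisons. The causes of the changes below were not tested. With siPOLR3A the members called numbered 2 with the isoform length offset and on both TPM scales and 8 after removal of the GC and length trend, against 5. With ML60218 they numbered 1 on both TPM scales against 3, and all genes called 3987 and 4004 on log2(TPM + 0.1) and log2(TPM + 1) against 6029. Repression genes called with siPOLR3A numbered 6 with the isoform length offset and 7 on both TPM scales against 11, and PIWI genes 1 with that offset against 0. On log2(TPM + 0.1) and log2(TPM + 1) with ML60218, processing genes called numbered 3 and 2 against 8, Argonaute cofactors 6 and 6 against 14, deadenylation genes 6 and 6 against 13 (7 with the isoform length offset), repression genes 3 and 4 against 9, and PIWI genes 0 against 1, as with DESeq2. Member transcripts called numbered 3 with ML60218 in DESeq2 against 0.

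Signs turned as follows. AGO3 with siPOLR3A was -0.522 with the isoform length offset and -0.474 and -0.428 on the TPM scales. With ML60218, TNRC6B was 0.014 (upper quartile) and 0.045 (total counts), DROSHA 0.009, 0.041, 0.168 (isoform length offset), 0.323 and 0.318 (TPM), AGO4 -0.085 (isoform length offset) and -0.016 (GC and length), and AGO2 -0.071 (GC and length). In the difference, AGO1 was 0.077, AGO3 0.137 and TARBP2 -0.054 with GC and length removed, and AGO2 -0.052 and -0.045 on the TPM scales. Without 1 library, TNRC6B with ML60218 ranged from -0.065 to 0.032, being 0.015 without DMSO replicate 1 and 0.032 without ML60218 replicate 2, and the difference ranged from -0.081 to 0.014 for AGO3 (0.014 without siPOLR3A replicate 1) and from -0.004 to 0.127 for AGO2 (-0.004 without ML60218 replicate 2). Among these, AGO3 with siPOLR3A on the offset and TPM scales and DROSHA with ML60218 on the TPM scales passed the threshold.

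Leaving out 1 library gave 7997 to 8361 genes called with siPOLR3A, 4159 to 6501 with ML60218 and 7504 to 8266 in the difference. Members called ranged from 4 to 5 and from 1 to 3, and member transcripts from 4 to 5 and from 0 to 2. Called genes of the processing, cofactor, deadenylation, repression and PIWI lists ranged with siPOLR3A from 9 to 10, 16 to 18, 14 to 15, 8 to 11 and 0 to 0, and with ML60218 from 6 to 8, 9 to 14, 8 to 13, 8 to 9 and 0 to 1.

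The replicate numbers did not pair the libraries, since same-numbered libraries had correlations of -0.093 to -0.013 and none correlated best with its own number. With the number as a replicate block, member transcripts called with siPOLR3A numbered 2 against 4, and members called 4 against 5, TNRC6B having an adjusted p of 0.066. Depth limits TNRC6C, PIWIL2, PIWIL4 and the short AGO3 transcripts most.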
